A study of Homo sapiens with 9 samples.

Results

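ATF4 and 9 genes it is known for, in amino acid supply, serine synthesis and the stress response, were followed in HepG2 cells with and without CRISPR guides against KEAP1. The genes were chosen by name, with earlier results of these data known, as ATF4, ASNS, TRIB3, CHAC1, DDIT3, SESN2, PSAT1, PHGDH, SHMT2 and ATF3. Of these 10 genes, 9 had a row among the 11746 features of the count table that carry an Entrez gene number, and all 9 passed the filter on low counts, while CHAC1 was not analysed here. HepG2 cells come from a human liver cancer and served the study in asking whether losing KEAP1, the protein that keeps the transcription factor NRF2 low, acts within the cell itself. The cells carried lentiCRISPRv2, which delivers Cas9 together with 1 guide, aimed at the safe-harbour locus AAVS1 (sgCtrl) or at KEAP1 with either of 2 guide sequences (sgKeap1-1 and sgKeap1-2), and were kept as puromycin-selected populations that the sources do not describe as clones. Each group had 3 libraries numbered 1 to 3, all from cells harvested 48 h after seeding, without siRNA, in medium that, per the study's methods, held non-essential amino acids, glutamine and serum. Nothing in the labels says that the 3 libraries of a group came from separate cultures, so p-values measure only the spread between these libraries.

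ATF4 is a basic leucine zipper (bZIP) transcription factor made when kinases phosphorylate the translation factor eIF2, as happens when uncharged tRNA builds up, when proteins misfold in the endoplasmic reticulum or when heme is short. It is controlled largely at translation, so its mRNA is no measure of its protein, and it is read through its targets: the amino acid enzymes and transporters that refill the pools, and DDIT3, TRIB3 and CHAC1, which are linked to prolonged stress. Serine is made from a glycolytic intermediate by PHGDH, PSAT1 and PSPH in turn, and SHMT2 then converts it to glycine in mitochondria and passes a carbon unit to folate.

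PHGDH was the member that changed with KEAP1 loss. It was 36.2% lower over the 6 KEAP1 guide libraries than over the 3 sgCtrl libraries, and it was lower with either guide. None of the other 8 measured members passed the threshold with either guide. DDIT3 differed instead by library number, with its highest value in replicate 2 of all 3 groups. Levels are given as normalized CPM, which are the deposited counts over the library total, scaled by the trimmed mean of M-values (TMM). A member is called changed at an adjusted p under 0.05 in edgeR's quasi-likelihood test, adjusted over the 11064 features tested.

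**Figure D1:**
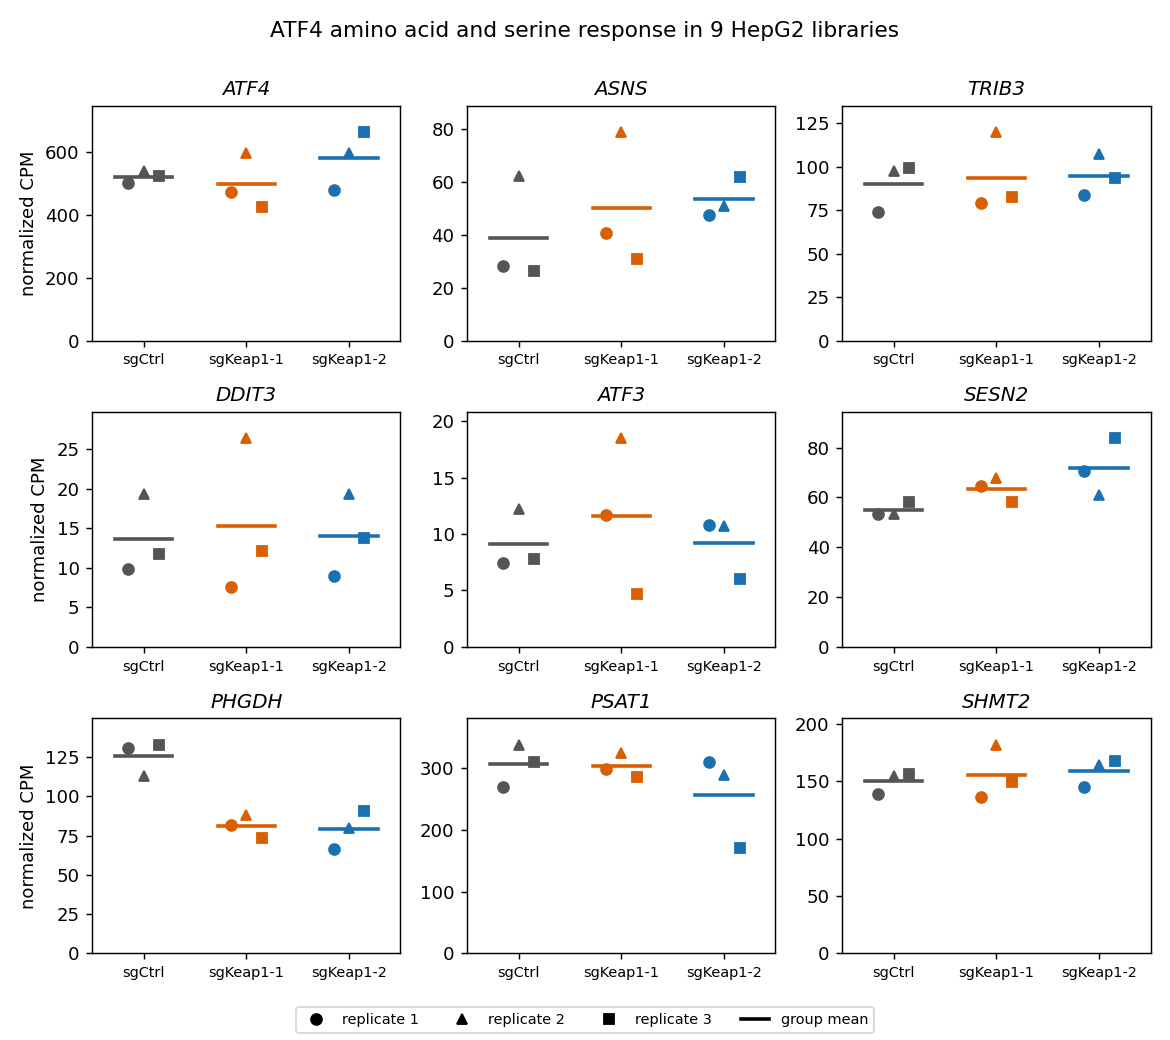
Normalized CPM (vertical axes, each starting at 0) of the 9 measured genes in the 3 groups on the horizontal axes. Symbols are single libraries by replicate number and lines are group means. PHGDH lies between 66.5 and 90.6 in the KEAP1 guide libraries and between 113 and 133 in the sgCtrl libraries.

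Libraries held 3051755 to 4793757 counted reads (median 3809616). The genes by which the labels can be checked rose in the KEAP1 guide libraries: NQO1, a quinone reductase and standard NRF2 target, went from 521 ± 15.5 (SD, n = 3) in sgCtrl to 1550 ± 245 (SD, n = 6), and GCLM and TXNRD1 rose by log2 fold changes of 1.99 and 2.24. KEAP1 mRNA itself was 79.3 ± 13.9 in sgCtrl, 60.0 ± 5.77 with sgKeap1-1 and 80.5 ± 5.98 with sgKeap1-2 (SD, n = 3 each), with log2 fold changes of -0.40 and 0.02 (adjusted p = 0.211 and 0.952 in edgeR's quasi-likelihood test). The guides differed in it by 0.42 (unadjusted p = 0.0148, adjusted p = 0.90 in the same test). A 3′ tag away from the cut does not check the edit. SRXN1 was not analysed here. All 8 hepatocyte markers were detected, and their summed level was 30000 to 37600 normalized CPM in sgCtrl against 14100 to 21700 with the KEAP1 guides. Cholangiocyte markers, of which 2 of 3 had a row, moved the other way without overlap, from 511 to 589 summed in sgCtrl to 727 to 1040 with the guides. The 3 endothelial markers had no row.

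PHGDH (Entrez gene 26227, on chr1:120191034-120286841, forward strand, GRCh37) encodes phosphoglycerate dehydrogenase, the entry enzyme of serine synthesis. Its normalized CPM were 131, 113 and 133 in sgCtrl replicates 1 to 3. They were 81.8, 88.2 and 73.6 in sgKeap1-1 and 66.5, 80.0 and 90.6 in sgKeap1-2. Every KEAP1 guide library lay below every sgCtrl library, with no overlap in either guide's group.

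The group means of PHGDH were 126 ± 11.0, 81.2 ± 7.32 and 79.0 ± 12.1 (SD, n = 3 each). With sgKeap1-1 the log2 fold change was -0.63 (standard error 0.14, 95% interval -0.94 to -0.32, adjusted p = 0.0202 in edgeR's quasi-likelihood test). With sgKeap1-2 it was -0.67 (standard error 0.14, 95% interval -0.97 to -0.36, adjusted p = 0.00748 in the same test). Over both guides it was -0.65 (standard error 0.12, 95% interval -0.90 to -0.40, adjusted p = 0.00205 in edgeR's test). This last test treats the libraries of both guides as replicates of 1 group, so its smaller p is no separate support. The guides differed from each other by -0.04, with an interval from -0.35 to 0.27, which corresponds to a difference of -21.4% to 20.6%. The same 3 sgCtrl libraries served both guides, so the 2 falls are not independent of each other.

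Read against the whole table, 1 of the 9 members was called in each comparison with sgCtrl, always PHGDH and always lower. The share of all features called was 4.20% with sgKeap1-1 (1.40% lower), 10.8% with sgKeap1-2 (4.85% lower) and 9.64% with both guides together (4.13% lower). A single call among 9 members is not read as a result about the members as a group. The groups did not overlap for 2 of the 9 members, PHGDH and SESN2, as was the case for 14.8% of all features in either direction. The call with sgKeap1-1 was lost without sgCtrl replicate 1 (log2 fold change -0.60, adjusted p = 0.0992), sgCtrl replicate 3 (-0.59, adjusted p = 0.103), sgKeap1-1 replicate 1 (-0.63, adjusted p = 0.0822) or sgKeap1-1 replicate 3 (-0.56, adjusted p = 0.0919) in edgeR's test. With sgKeap1-2 and with both guides the call was kept whichever of the 9 libraries was left out. The summed hepatocyte markers were lower and the summed cholangiocyte markers higher in the same libraries in which PHGDH was lower, and their part in the result was not tested. In bulk RNA, fewer cells with the transcript and less of it per cell cannot be told apart.

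**Figure D2:**
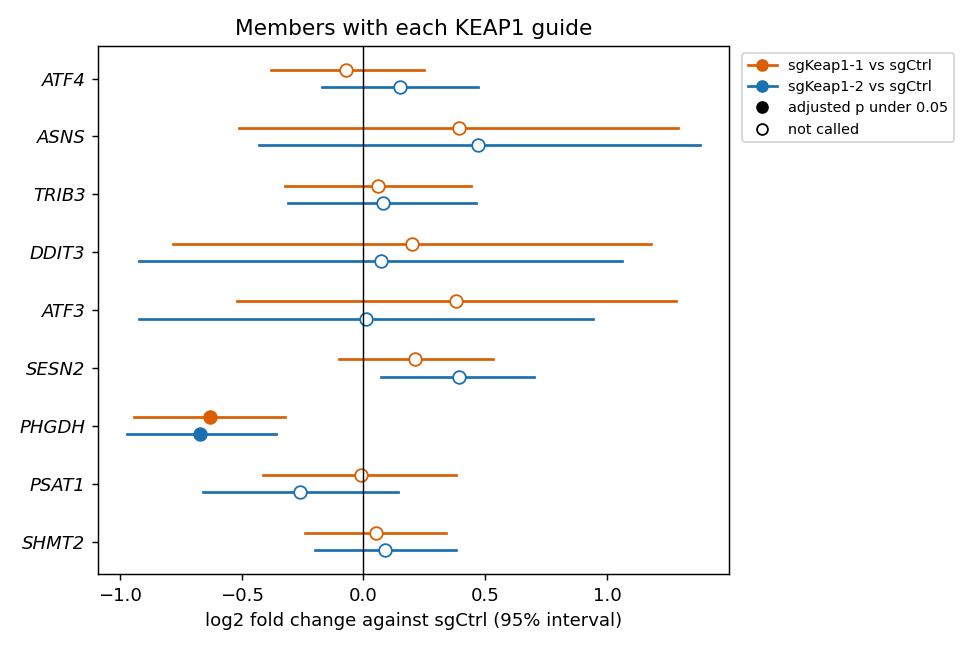
Log2 fold change against sgCtrl (horizontal axis) of each measured gene with sgKeap1-1 and sgKeap1-2, with 95% intervals as lines. Filled points have an adjusted p under 0.05, which holds for PHGDH alone, at -0.63 and -0.67.

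PSAT1 and SHMT2, the enzymes on either side of PSPH in the serine route, were not called with either guide. PSAT1, the aminotransferase of the second step (chr9:80912041-80945009, GRCh37), had normalized CPM of 270, 338 and 310 in sgCtrl, 298, 324 and 286 in sgKeap1-1, and 309, 289 and 170 in sgKeap1-2. Its sgKeap1-2 replicate 3 stood below the other 8 libraries, which lay between 270 and 338. The log2 fold changes were -0.01 with sgKeap1-1 (95% interval -0.41 to 0.38) and -0.26 with sgKeap1-2 (95% interval -0.66 to 0.14). Without sgKeap1-2 replicate 3 the latter was -0.03.

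SHMT2, the mitochondrial serine hydroxymethyltransferase (chr12:57623356-57628718, GRCh37), had normalized CPM of 139, 155 and 156 in sgCtrl, 136, 182 and 149 in sgKeap1-1, and 145, 164 and 168 in sgKeap1-2. The 3 groups overlapped throughout. NDUFA4L2, on the opposite strand, overlaps the 3′ end of SHMT2, so reads there could belong to either gene. The log2 fold change of SHMT2 over both guides was 0.07, with an interval from -0.17 to 0.31, so that a fall as large as that of PHGDH lies outside the interval. PSPH, the last enzyme of the route and named here after its values were seen, was 88.8 ± 8.74 in sgCtrl and 84.8 ± 13.2 over both guides (SD, n = 3 and 6, log2 fold change -0.07, 95% interval -0.36 to 0.23).

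Ratios of counts within a library, which need no scaling between libraries, were compared for this route. The ratio of PHGDH to SHMT2 counts was 0.943, 0.728 and 0.853 in sgCtrl. It was 0.603, 0.485 and 0.494 in sgKeap1-1 and 0.458, 0.488 and 0.539 in sgKeap1-2. The ratio of PHGDH to PSPH counts was 1.37 to 1.45 in sgCtrl and 0.824 to 1.12 with the KEAP1 guides. Neither ratio overlapped between sgCtrl and the guides. PHGDH alone did not overlap either, so these ratios restate its fall without scaling and are no separate result. The ratio of PHGDH to PSAT1 counts was 0.334 to 0.486 in sgCtrl and 0.215 to 0.277 in 5 of the 6 guide libraries, but 0.534 in sgKeap1-2 replicate 3, the library in which PSAT1 was low.

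ATF4 mRNA (chr22:39915700-39918688, GRCh37) had the highest level of the members in every library, on a 3′ count scale that carries no factor of transcript length. Its normalized CPM were 501, 538 and 523 in sgCtrl, 473, 597 and 423 in sgKeap1-1, and 477, 595 and 663 in sgKeap1-2. The sgCtrl libraries were close together, and the values with each guide spread to both sides of them. The log2 fold change over both guides was 0.05 (standard error 0.13, 95% interval -0.24 to 0.33, adjusted p = 0.897 in edgeR's quasi-likelihood test). The 3 features whose log2 CPM ran most like ATF4 over the 9 libraries were ANKRD26 (Pearson r = 0.961), RPS2 (r = 0.956) and SAMTOR (r = 0.933), given as a description. The annotation names 4 pseudogenes after ATF4, 6 after ASNS and 4 after PSAT1, so reads of these genes could have been shared with copies, whereas it names 0 after PHGDH.

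ASNS, asparagine synthetase, makes asparagine from aspartate and glutamine and is a textbook ATF4 target (chr7:97480989-97501854, reverse strand, GRCh37). In RefSeq's windows around gene starts, of 250 bases before to 50 after, the C/EBP-ATF composite letters TGATGNAA were searched on both strands, since this is the kind of element ATF4 is known to bind with C/EBP proteins. Of the 8 measured members with a window, ASNS and ATF3 held them. The 30 bases around each match are shown because they are the only matches among the measured members, with the match in capitals, 5′ to 3′ on the strand of the gene (RefSeq sequences of GRCh38.p14, placed on GRCh37 by an exact match at chr7:97501770-97501799 for ASNS and chr1:212738547-212738576 for ATF3).
ASNS: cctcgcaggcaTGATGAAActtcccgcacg
ATF3: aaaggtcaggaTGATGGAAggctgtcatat

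The ASNS match starts 68 bases before the start of its RefSeq window's transcript, and the ATF3 match 191 bases before that of its own. Each gene has 2 such starts in the table, and they are not the gene ends given here from GENCODE, so the ASNS match lies inside the annotated gene, which begins farther out, and the ATF3 match lies before the annotated gene. These letters occur in 3.62% of the 35116 windows of the table, and in 2% of the 13625 windows of genes that are in the count table. PHGDH, PSAT1, SESN2, DDIT3, ATF4 and TRIB3 had none in their windows. The core of the antioxidant response element to which NRF2 binds with small MAF proteins, TGACNNNGC, was found in the TRIB3 windows only, near the start and not wholly before it, against 13.3% of all windows. The cyclic AMP response element TGACGTCA, found in 1.85% of all windows, was in none of the members' windows. A match is a string of letters and not a measured site, and a missing match says only that the letters are not in that window.

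ASNS had normalized CPM of 28.1, 62.3 and 26.5 in sgCtrl, 40.9, 79.1 and 31.0 in sgKeap1-1, and 47.4, 51.0 and 62.0 in sgKeap1-2. In sgCtrl and sgKeap1-1 the replicate 2 library was far above the other two, and in sgKeap1-2 it was not. The log2 fold changes were 0.39 with sgKeap1-1 (95% interval -0.51 to 1.29) and 0.47 with sgKeap1-2 (95% interval -0.43 to 1.38), and neither was called (adjusted p = 0.760 and 0.549 in edgeR's quasi-likelihood test). With all 3 replicate 2 libraries left out, a choice made after seeing the data, ASNS was higher with sgKeap1-2 by 1.02 (adjusted p = 0.00702 in edgeR's test), while sgKeap1-1 gave 0.39 (adjusted p = 0.498 in the same test). Reads of ASNS cannot be told apart from those of a long non-coding RNA that is annotated over it on the same strand.

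TRIB3, a pseudokinase that ATF4 induces and that holds ATF4 back in turn (chr20:343479-378203, GRCh37), had normalized CPM of 73.9, 97.3 and 99.3 in sgCtrl, 78.9, 120 and 82.3 in sgKeap1-1, and 83.7, 107 and 93.5 in sgKeap1-2. All 3 groups overlapped, and replicate 1 was the lowest library of each. The log2 fold change over both guides was 0.07, with an interval from -0.25 to 0.39.

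SESN2, sestrin 2, is a leucine sensor that restrains mTORC1 and is induced by ATF4, by NRF2 and by p53 (chr1:28586029-28609002, GRCh37). Its normalized CPM were 53.3, 53.4 and 58.0 in sgCtrl, 64.5, 68.0 and 58.1 in sgKeap1-1, and 70.5, 61.0 and 83.8 in sgKeap1-2. Every guide library was above every sgCtrl library, although sgKeap1-1 replicate 3 was above sgCtrl replicate 3 only by 58.1 against 58.0. As given for PHGDH, 14.8% of all features had groups that did not overlap. The log2 fold changes were 0.21 with sgKeap1-1 (95% interval -0.10 to 0.53) and 0.39 with sgKeap1-2 (95% interval 0.07 to 0.70). Neither passed the adjustment over all features, nor did both guides together at 0.30 (unadjusted p = 0.0365, adjusted p = 0.185 in edgeR's quasi-likelihood test).

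DDIT3, also called CHOP, is the bZIP factor of prolonged endoplasmic reticulum stress (chr12:57910371-57915520, reverse strand, GRCh37). Its normalized CPM were 9.80, 19.4 and 11.7 in sgCtrl, 7.55, 26.4 and 12.1 in sgKeap1-1, and 8.93, 19.3 and 13.8 in sgKeap1-2, from 29 to 121 reads. Within each group replicate 2 was the highest and replicate 1 the lowest. Between groups the values overlapped fully, with a log2 fold change over both guides of 0.13 and an interval from -0.67 to 0.94.

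The test of the replicate number, in edgeR's quasi-likelihood fit with group and number as factors, gave DDIT3 a log2 difference of 1.31 for replicate 2 over replicate 1 and 0.52 for replicate 3 over replicate 1 (adjusted p = 0.00485). DDIT3 was the 1 of 9 members called, against 5.59% of all features. ATF3, TRIB3 and ASNS had unadjusted p of 0.00363, 0.00675 and 0.0383 in the same edgeR test and did not pass the adjustment (adjusted p = 0.0578, 0.0819 and 0.204). In the labels, libraries with the same number share a name prefix across the 3 groups, and what the prefix or the number stands for is not given. The 3′ ends of DDIT3 and MARS1, the methionyl-tRNA synthetase on the opposite strand (chr12:57869228-57911352), overlap, and the strand setting of the counting is not given in the sources used here, so part of their reads cannot be told apart. The annotation also has a protein-coding gene within DDIT3 on its own strand, and MBD6 on the opposite strand overlaps its 5′ end. MARS1, at 104 ± 9.29 normalized CPM in sgCtrl (SD, n = 3), also had replicate 2 as its highest library in all 3 groups (0.25 over replicate 1, adjusted p = 0.139 in edgeR's test).

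**Figure D3:**
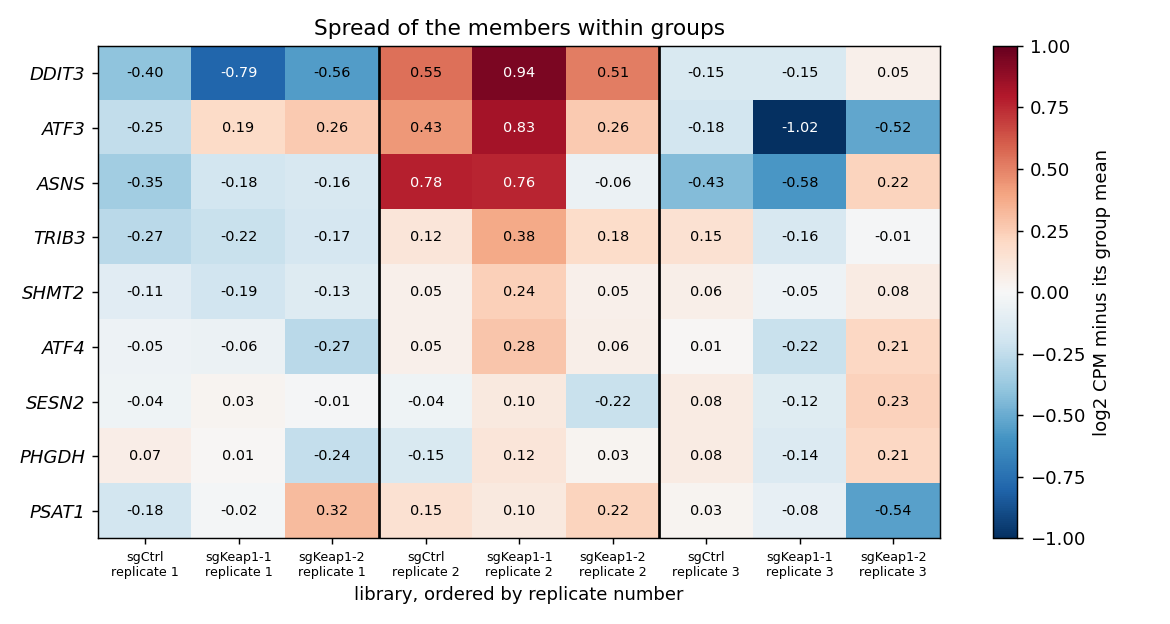
Log2 CPM of each measured gene (rows) minus the mean of its group, in the 9 libraries ordered by replicate number (columns, with vertical lines between numbers). Red is above and blue below the group mean. DDIT3 is above its group mean in all 3 replicate 2 libraries, by 0.51 to 0.94, and PSAT1 is 0.54 below it in sgKeap1-2 replicate 3.

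ATF3, a bZIP factor downstream of ATF4 and of many other stress signals (chr1:212738676-212794119, GRCh37), had the lowest group means of the members, with 18 to 85 reads a library. Its normalized CPM were 7.42, 12.2 and 7.81 in sgCtrl, 11.7, 18.5 and 4.73 in sgKeap1-1, and 10.8, 10.7 and 6.06 in sgKeap1-2. The lowest and the highest library were both of sgKeap1-1. The log2 fold change over both guides was 0.21, with an interval from -0.57 to 0.99, so that changes anywhere in that range remain possible.

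Within groups, some members moved together from library to library. Over the 9 libraries, deviations from the group mean of log2 CPM ran in parallel for TRIB3 and SHMT2 (r = 0.917), DDIT3 and SHMT2 (r = 0.908), TRIB3 and DDIT3 (r = 0.888) and ATF4 and SHMT2 (r = 0.813). PHGDH ran with ATF4 (r = 0.786), but in log2 CPM not centred on the group means their r was 0.188. These 5 are the pairs of members with the highest r. The other pairs with ATF4 ran from -0.346 for PSAT1 to 0.724 for TRIB3. Leaving out each library in turn, a choice made after seeing the data, kept the 5 highest pairs between 0.608 and 0.971. As they were picked for their high r, this is no test of them. For PHGDH and PSAT1 r was -0.65 over all libraries and -0.25 without sgKeap1-2 replicate 3, so it rests largely on that library. These are descriptions over libraries that share their scaling and their replicate numbers. Across the comparisons the members' median log2 fold change was 0.06 with sgKeap1-1, 0.08 with sgKeap1-2 and 0.07 with both guides, where that of all features was 0, -0.01 and 0.

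Other genes of the pathway were described from 9 lists for the comparison of both guides with sgCtrl, in which 5.51% of all features were called higher and 4.13% lower. The lists were chosen with earlier results of these data known. The comparison treats the libraries of both guides as 1 group, and calls by guide are given after the lists. Among 16 measured genes of serine, glycine and folate metabolism beyond the members, 1 rose, 0 fell and 15 were not called, with a median log2 fold change of -0.11. A fit that also held the replicate number gave 1 rising, 1 falling and 14 not called. The riser was ALDH1L1, the cytosolic enzyme that oxidizes formyl-tetrahydrofolate, which had normalized CPM of 18.8, 18.4 and 17.6 in sgCtrl. It had 45.8, 55.3 and 35.5 in sgKeap1-1 and 50.8, 85.4 and 71.0 in sgKeap1-2, with no overlap (log2 fold change 1.65, standard error 0.25, adjusted p = 0.000705 in edgeR's quasi-likelihood test). MTHFD2, the mitochondrial folate enzyme usually listed beside PHGDH and SHMT2 as an ATF4 target and named here after its values were seen, was 126 ± 40.6 in sgCtrl and 132 ± 37.8 over both guides (SD, n = 3 and 6). Its interval was -0.47 to 0.62. Like DDIT3, MTHFD2 was highest in replicate 2 of every group (0.74 over replicate 1, adjusted p = 0.00427 in edgeR's test of the replicate number).

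Of 12 amino acid transporters, 2 rose, 1 fell and 9 were not called, with a median of 0.21. Once the replicate number was in the fit, 5 rose, 1 fell and 6 were not called. SLC7A11, the cystine and glutamate exchanger that both ATF4 and NRF2 are known to induce, had normalized CPM of 31.5, 46.3 and 35.4 in sgCtrl, 125, 207 and 93.6 in sgKeap1-1, and 179, 219 and 114 in sgKeap1-2. All 6 guide libraries were above the sgCtrl range (log2 fold change 2.06, standard error 0.30, adjusted p = 0.00127 in edgeR's quasi-likelihood test). SLC1A5, a neutral amino acid and glutamine transporter, rose by 0.59 (adjusted p = 0.00621 in edgeR's test). SLC6A9, a glycine transporter, fell by 0.89 (adjusted p = 0.0415 in the same test), but without sgCtrl replicate 1 the log2 fold change was -0.55 and was not called.

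Of 12 other amino acid enzymes, 1 rose, 2 fell and 9 were not called (median 0.04). BCAT1, the cytosolic branched-chain aminotransferase, rose by 0.66 (adjusted p = 0.0031 in edgeR's quasi-likelihood test). Glutamine synthetase GLUL fell by 0.58 and the mitochondrial alanine aminotransferase GPT2 by 0.53 (adjusted p = 0.0404 and 0.0333 in edgeR's test). Of 19 cytosolic aminoacyl-tRNA synthetases, which charge tRNAs, 2 rose and 0 fell, namely YARS1 and WARS1 with 0.53 each (adjusted p = 0.0372 and 0.0251 in edgeR's test). The fold changes of 18 of the 19 were above 0, with a median of 0.22, and 17 were not called. A fit that also held the replicate number gave 3 synthetases rising and 16 not called.

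Upstream, of 17 genes for eIF2 kinases, phosphatases and the exchange factor eIF2B, 1 rose and 16 were not called (median 0.05). The riser was PPP1R15A, the stress-induced phosphatase subunit GADD34, at 16.2 ± 1.33 in sgCtrl and 34.5 ± 13.5 over both guides (log2 fold change 1.09, adjusted p = 0.0385 in edgeR's quasi-likelihood test). A fit that also held the replicate number gave 2 of these 17 genes rising and 15 not called. Of 15 bZIP partners and relatives, 0 rose and 2 fell (median 0). Once the replicate number was in the fit, 2 rose and 2 fell. The 2 risers there were JUN by 0.91 and MAFG by 0.47 (adjusted p = 0.000104 and 0.00852 in edgeR's test). CREB3L3, a liver bZIP factor held in the endoplasmic reticulum membrane, fell by 1.15 (adjusted p = 0.00122 in edgeR's test), alongside the lower hepatocyte markers, whose part was not tested. NFE2L2 mRNA, which encodes NRF2, fell by 0.44, from 256 ± 19.7 to 188 ± 22.4 (adjusted p = 0.023 in edgeR's test). With sgKeap1-1 alone it was not called (adjusted p = 0.146 in the same test). The study reports the other direction for the protein, with markedly more NRF2 on immunoblots of KEAP1 knockout HepG2 cells.

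Among 17 other stress outputs linked to ATF4, 1 rose and 16 were not called, though the list's median of 0.57 was the highest of the 9. Once the replicate number was in the fit, 4 rose and 13 were not called. These 4 were PMAIP1, DDIT4, STC2 and GDF15 (adjusted p = 0.0137, 0.000922, 0.0022 and 0.000114 in edgeR's test). Without the number in the fit, PMAIP1, which encodes the cell death protein NOXA, rose by 1.47 at a low level, from 1.82 to 4.94 (adjusted p = 0.047 in edgeR's quasi-likelihood test). Of 15 chaperones of the endoplasmic reticulum, 2 rose and 0 fell (median 0.13), HYOU1 by 0.48 and DNAJC3 by 0.38 (adjusted p = 0.00998 and 0.0387 in edgeR's test). Of 9 immediate early genes, 1 rose and 0 fell (median 0.44), JUNB by 0.67 (adjusted p = 0.0438 in edgeR's test). A fit that also held the replicate number gave 2 immediate early genes rising and 7 not called.

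**Figure D4:**
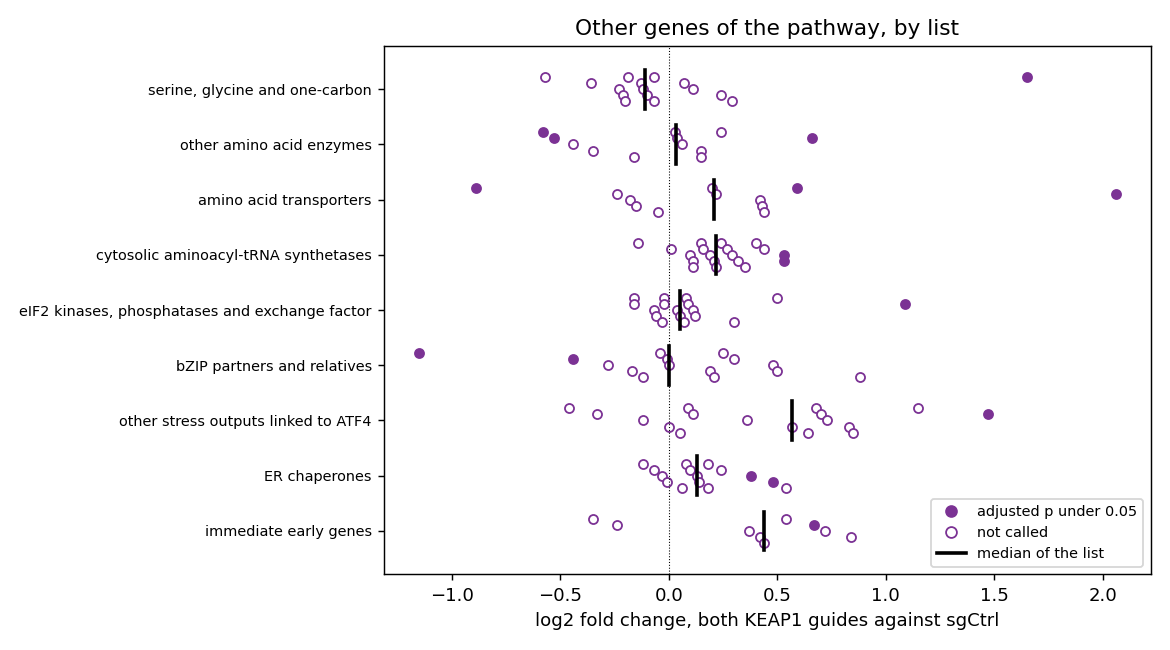
Log2 fold change of both KEAP1 guides against sgCtrl (horizontal axis) for every tested gene of 9 lists around ATF4 (rows). Filled points have an adjusted p under 0.05 and black lines are list medians. SLC7A11 at 2.06 and ALDH1L1 at 1.65 lie farthest to the right.

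Of the list genes called over both guides, ALDH1L1, BCAT1, SLC7A11 and CREB3L3 were also called with each guide alone. SLC1A5, SLC6A9, GLUL, GPT2, YARS1, WARS1, NFE2L2 and HYOU1 were called with sgKeap1-2 alone and not with sgKeap1-1. PPP1R15A, PMAIP1, DNAJC3 and JUNB were called with neither guide by itself. Over both guides, leaving out each library in turn kept the calls of ALDH1L1, SLC7A11, SLC1A5, BCAT1 and CREB3L3 in all 9 fits. Those of the other list genes were lost in at least 1 of them: HYOU1 in 1 (without sgCtrl replicate 1, adjusted p = 0.0758), NFE2L2 in 3, WARS1 and PPP1R15A in 4, YARS1 and SLC6A9 in 5, PMAIP1 in 6, and GLUL, GPT2, DNAJC3 and JUNB in 7, with adjusted p up to 0.348 in edgeR's quasi-likelihood test. Each of these 11 calls was lost without sgCtrl replicate 1. With limma-voom the calls of SLC6A9, PPP1R15A, PMAIP1 and JUNB were not made (adjusted p = 0.0578, 0.0735, 0.059 and 0.0537).

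The replicate number was also tested over these lists. It was called for 6 of 17 other stress outputs, 7 of 15 bZIP genes, 5 of 9 immediate early genes and 4 of 15 endoplasmic reticulum chaperones, against 5.59% of all features. GDF15, a secreted stress hormone downstream of ATF4 and DDIT3 and named after its values were seen, was 1.48 higher in replicate 2 than in replicate 1 (adjusted p = 7.09e-08 in edgeR's quasi-likelihood test) and had its highest level in replicate 2 of all 3 groups. Over both guides GDF15 was 0.70 higher than in sgCtrl without the number in the fit (adjusted p = 0.498 in edgeR's test). Replicate number was called for 2 of 12 amino acid transporters, SLC7A11 and SLC38A2, for 2 of 12 other amino acid enzymes, GLUL and CTH, and for 1 each of 16 serine, glycine and folate genes, 19 tRNA synthetases and 17 genes around eIF2. CTH and SLC38A2 are likewise named after their values were seen.

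Between the 2 guides, 0 of the 9 members were called in edgeR's quasi-likelihood test, and 0 had an unadjusted p under 0.05. Of all features 0.0181% were called. The members' log2 differences of sgKeap1-2 from sgKeap1-1 ran from -0.37 for ATF3 (95% interval -1.25 to 0.52) to 0.22 for ATF4 (95% interval -0.10 to 0.53). The intervals reached beyond these differences, as for ASNS (0.08, 95% interval -0.80 to 0.96) and DDIT3 (-0.13, 95% interval -1.09 to 0.83), and they do not show that the guides act alike.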

How the data were processed

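RNA from 9 HepG2 libraries was prepared with the QuantSeq 3′ kit, which reads transcript ends. Per the study's methods the authors trimmed, aligned and counted single-end reads on Galaxy, and they deposited raw whole-number counts per gene (STAR 2.7.5b and featureCounts 1.6.3 in the submitters' processing notes). The methods name GRCh37 and the notes hg38. The gene annotation and strand setting are not given in the sources used here.

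Rows without an Entrez number (1052 of 12798, 1.34% of counts) were left out of library sizes and tests. Counts were filtered with filterByExpr, scaled by TMM and tested in R 4.3.3 with edgeR 4.0.16 (quasi-likelihood test) with group as the only factor in 1 fit of all libraries, or of 2 groups for both guides together. P-values were adjusted by Benjamini-Hochberg. Standard errors are the log2 fold change over the root of F. Symbols came from RefSeq gene numbers, and positions from GENCODE on GRCh37.

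Members and lists were chosen with earlier results of these data known. The genes named are all members, the label check genes, the called genes of each list (up to 3 in each direction), the 3 features most like ATF4, and NFE2L2. PSPH, MTHFD2, MARS1, GDF15 and genes marked by the replicate number were added after their values were seen. On simulated counts of 10756 genes for sgKeap1-1 against sgCtrl, 78 of 100 genes changed 2-fold and 22 of 100 changed 1.5-fold were recovered. The changed genes were drawn from those with more reads, so genes with as few as ATF3 were not among them. Spread followed the trend over all genes and not each gene's own, and no replicate number effect was simulated. Recovery may therefore be lower for the members. Pairs of libraries of 1 group differed beyond sampling noise (chi-square per degree of freedom 4.63 to 24.1).

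The alternatives tried were a block for the replicate number, DESeq2 size factors, no scaling, limma-voom 3.58.1, the DESeq2 1.42.0 Wald test, other filters, 2 groups only and leaving out each library. Leaving out all replicate 2 libraries and keeping rows without a number, and correlations without each library, were added after seeing the data.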

Additional observations from a re-analysis of the deposited data

Results flagged for a closer look

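PSAT1 in sgKeap1-2 replicate 3, at 170 normalized CPM, was far from the other 5 KEAP1 guide libraries (286 to 324). Its gap to the nearest of them was 0.808 of the whole range in log2 CPM, above Dixon's critical value of 0.625 for 6 libraries. It was the only one of the 9 members so marked, and chance marks about 1 in 20 such groups.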

How the results depend on the processing

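Of 675 values of members under the alternatives, 622 kept their direction and their side of the threshold, 4 lost a call (PHGDH with sgKeap1-1, leaving out 1 library), 1 gained a call (ASNS with sgKeap1-2 at 1.02, without all replicate 2 libraries, so that 2 members were called there), and 48 changed sign, 0 of them called. PHGDH stayed called with each guide under the 9 settings that left out no library. Same-numbered libraries deviated together in 7 of 9 pairs at r over 0.1 (range -0.0308 to 0.664), as did 3 of 18 pairs with different numbers (range -0.523 to 0.382). Both same-numbered pairs under 0.1 held sgKeap1-2 replicate 1 (r = -0.0308 with sgCtrl and 0.0389 with sgKeap1-1), and the 7 over 0.1 ran from 0.28 to 0.664. The study names no design, so group alone was kept as the main fit and the number as an alternative. The fit with the replicate block called 977, 1956 and 1609 features with sgKeap1-1, sgKeap1-2 and both guides, against 465, 1196 and 1067 without it, and 26 against 2 between the guides. It called 21, 34 and 28 list genes against 4, 15 and 16, among them GDF15 with both guides (0.67, adjusted p = 0.000114 in edgeR's test). It changed no call of a member, with PHGDH at adjusted p = 0.00421, 0.00129 and 0.000725 in edgeR's test, and turned the uncalled ATF3 with sgKeap1-2 from 0.01 to -0.01. Between the guides, 0 features were called with limma-voom, 0 with at least 10 counts in every library, 0 with only the 2 groups compared and 19 with the DESeq2 Wald test, and 562 had an unadjusted p under 0.05. The cause of these differences was not tested.

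Leaving out each library in turn, or all replicate 2 libraries, gave 278 to 688 features called with sgKeap1-1, 764 to 1291 with sgKeap1-2, 607 to 1236 with both guides and 0 to 2 between the guides. It gave 0 to 1 members called with sgKeap1-1 and 1 to 2 with sgKeap1-2. With sgKeap1-1 the log2 fold changes ran from -0.22 to 0.04 for ATF4, -0.10 to 0.89 for ASNS, -0.16 to 0.17 for TRIB3, -0.46 to 0.52 for DDIT3, -0.10 to 0.06 for PSAT1, -0.08 to 0.14 for SHMT2 and -0.13 to 0.74 for ATF3. With sgKeap1-2 they ran from -0.05 to 0.16 for TRIB3, -0.22 to 0.39 for DDIT3 and -0.12 to 0.26 for ATF3. Between the guides they ran from -0.17 to 0.62 for ASNS, -0.09 to 0.24 for TRIB3, -0.46 to 0.53 for DDIT3, -0.15 to 0.07 for PHGDH, -0.06 to 0.17 for SHMT2 and -0.73 to 0.15 for ATF3. With both guides together they ran from -0.02 to 0.11 for ATF4, -0.06 to 0.14 for TRIB3, -0.12 to 0.46 for DDIT3, -0.04 to 0.46 for ATF3 and -0.13 to 0.34 for MTHFD2. The replicate number effect on DDIT3 was called under all 6 settings run (adjusted p = 0.00396 to 0.00910 in edgeR or limma-voom). Counted only before the start, TGACNNNGC was in 0 members' windows instead of 1.

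ATF3 and DDIT3 had few reads, at 18 to 121 a library, but over both guides their standard errors (0.36 and 0.37) were close to that of ASNS (0.33), at 95 to 363 reads. With 3 libraries a group, few 1.5-fold changes were recovered in simulated counts. A single sgCtrl set serves the 3 comparisons with sgCtrl.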
